A study of Mus musculus with 12 samples.

Results

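The genes described here are 35 mouse genes of the integrated stress response and of amino acid supply, among 45706 genes of a deposited table of RNA-seq read counts. They were chosen because each had been seen at a lower level in the *Sox1*-induced glial progenitors than in the uninduced ones, so the difference between those 2 groups is given below as a description, without a test. All 35 were found by symbol and all 35 passed the filter on low counts, which left 17003 genes. The table holds 12 libraries in 4 groups of 3, made from C57BL/6 embryonic stem cells that carry GFP in the *Sox1* gene. Baseline libraries come from unsorted, *Sox1*-negative glial progenitors (neural progenitor cells, NPCs) and Sox1posGP libraries from NPCs sorted for *Sox1* after its promoter had been targeted with dCas9-VP64, a catalytically dead Cas9 joined to a transcriptional activator. NSC libraries come from unsorted neuroepithelial cells of a neural induction, and NR libraries from neuroepithelial cells sorted for GFP as neural rosettes. The replicates were made on different days, and the study grew its dCas9-VP64 lines from single cells without stating which line gave which library. Sorting and *Sox1* state cannot be told apart between Baseline and Sox1posGP, because Sox1posGP was the sorted group of the pair. The study also describes lentiviral delivery of guide RNAs with puromycin selection, and dCas9-VP64 lines kept in blasticidin. Any of these treatments that differed between the 2 groups cannot be told apart from *Sox1* state either.

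The integrated stress response is the shared answer of cells to amino acid shortage, unfolded protein in the endoplasmic reticulum (ER), haem shortage and double-stranded RNA. Each of these activates a kinase that phosphorylates the translation factor eIF2, which lowers general translation while the mRNA of the transcription factor ATF4 is translated more. ATF4, often with C/EBP partners, then raises genes of amino acid import, amino acid synthesis, tRNA charging and feedback control. The level of *Atf4* mRNA is therefore only part of ATF4 activity, and neither eIF2 phosphorylation nor protein was measured in these libraries.

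Total counts ranged from 3407066 to 6315574 in Sox1posGP, from 4939268 to 18351483 in Baseline, from 16707006 to 34594885 in NR and from 29046205 to 43095688 in NSC. All levels below are CPM (counts scaled to a common library size) after TMM scaling, which adjusts library sizes for composition. *Sox1*, the targeted gene, was at 4.83, 6.00 and 5.43 CPM in Baseline, at 20.3, 20.9 and 21.7 CPM in Sox1posGP and at 48.6, 64.9 and 51.8 CPM in NSC. In the libraries labelled NR it was at 4.62, 20.0 and 19.2 CPM, so replicate 1 was at the Baseline level against its label, and results on NR are also given without it. Every NR library also lay below every NSC library for *Sox1*, although NR was labelled as sorted for GFP. Leaving out replicate 1 does not alter that, and NR is used below as the name of the label. The summed level of 6 pluripotency markers was 1345 to 2553 CPM in NR against 51.6 to 143 CPM in NSC, 34.5 to 45.5 CPM in Baseline and 13.3 to 15.0 CPM in Sox1posGP. The defining markers of the glial label were uneven in Baseline and Sox1posGP, with *Slc1a3* at 2468 to 2774 CPM and 1147 to 1205 CPM, respectively, and *Gfap* at 1.46 to 3.67 CPM over both groups. *Aqp4* had at most 3 counts in every Baseline library. *Aldoc* was at 638 to 641 CPM and 337 to 358 CPM, respectively, *S100b* at 14.1 to 19.1 CPM and *Aldh1l1* at 0.626 to 3.17 CPM over both groups. The summed level of 6 oligodendrocyte lineage markers was 2404 to 2533 CPM in Baseline and 1627 to 1761 CPM in Sox1posGP. That sum was mostly *Olig1* and *Olig2*, while *Sox10* had at most 3 counts in every library of both groups.

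The promoters of the 35 genes were read for the core of the C/EBP-ATF response element, the DNA motif at which ATF4 binds with a C/EBP partner. The letters searched were TGATGNAA on both strands, in the 300 bases from 250 before to 50 after each start in RefSeq on GRCm38.p6, and 30 of the 35 genes had an entry. Of these 30 genes, 12 held a match (40.0%), against 4.51% of 27025 genes with an entry. The genes were picked as linked to ATF4, so this share is not independent of the choice and is given as a description. They were *Atf3*, *Chac1*, *Trib3*, *Slc7a11*, *Asns*, *Nupr1*, *Herpud1*, *Slc1a4*, *Pycr1*, *Jdp2*, *Pck2* and *Vldlr*. The cAMP response element TGACGTCA, its own reverse complement, stood in the promoter of *Ppp1r15a* alone among the 30 genes, against 2.03% of all genes, and no gene of the 30 held both motifs. The windows below show the matches in capitals on the strand of the gene, 5′ to 3′, for 6 genes whose levels are described below and for the genes with other arrangements (a pair of matches in *Slc7a11*, the cAMP response element in *Ppp1r15a*). A match describes these letters and is not a measured binding site.
Trib3 (chr2:152344013-152344072, minus strand): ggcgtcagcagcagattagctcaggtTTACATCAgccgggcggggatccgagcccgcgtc
Chac1 (chr2:119351023-119351082, plus strand): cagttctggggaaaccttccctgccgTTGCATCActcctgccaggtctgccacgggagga
Nupr1 (chr7:126625547-126625606, minus strand): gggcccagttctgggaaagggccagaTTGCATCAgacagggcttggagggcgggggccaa
Atf3 (chr1:191183410-191183469, minus strand): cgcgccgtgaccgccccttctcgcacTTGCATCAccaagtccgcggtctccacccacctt
Asns (chr6:7693199-7693258, minus strand): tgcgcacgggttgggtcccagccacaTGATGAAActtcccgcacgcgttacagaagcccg
Slc1a4 (chr11:20332684-20332743, minus strand): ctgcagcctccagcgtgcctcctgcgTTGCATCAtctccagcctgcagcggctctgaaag
Slc7a11 (chr3:50443646-50443705, minus strand): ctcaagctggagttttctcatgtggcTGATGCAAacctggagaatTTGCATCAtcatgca
Ppp1r15a (chr7:45526247-45526306, minus strand): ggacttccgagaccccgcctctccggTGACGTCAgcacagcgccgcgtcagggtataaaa

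Baseline held the highest mean of the 4 groups for 31 of the 35 genes, and for 24 of them it was at least 2-fold above every other group. In the other 4 genes NSC (*Sesn2*) or NR (*Slc7a3*, *Slc1a5* and *Gdf15*) had the highest mean. In all 35 genes every Sox1posGP library lay below every Baseline library, which was the basis of the choice. Over all genes tested the share was 27.1%, and 22.7% were called lower. The log2 fold changes of Sox1posGP against Baseline ran from -0.49 for *Slc38a2* to -4.96 for *Trib3* with a median of -1.79, and the median over all genes tested was 0. The summed level of the 35 genes was 13213 ± 417 CPM in Baseline, 4337 ± 121 CPM in Sox1posGP, 4278 ± 516 CPM in NR and 2941 ± 194 CPM in NSC (SD, n = 3 each). In these bulk libraries fewer cells of a type and less RNA per cell cannot be told apart.

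**Figure D1:**
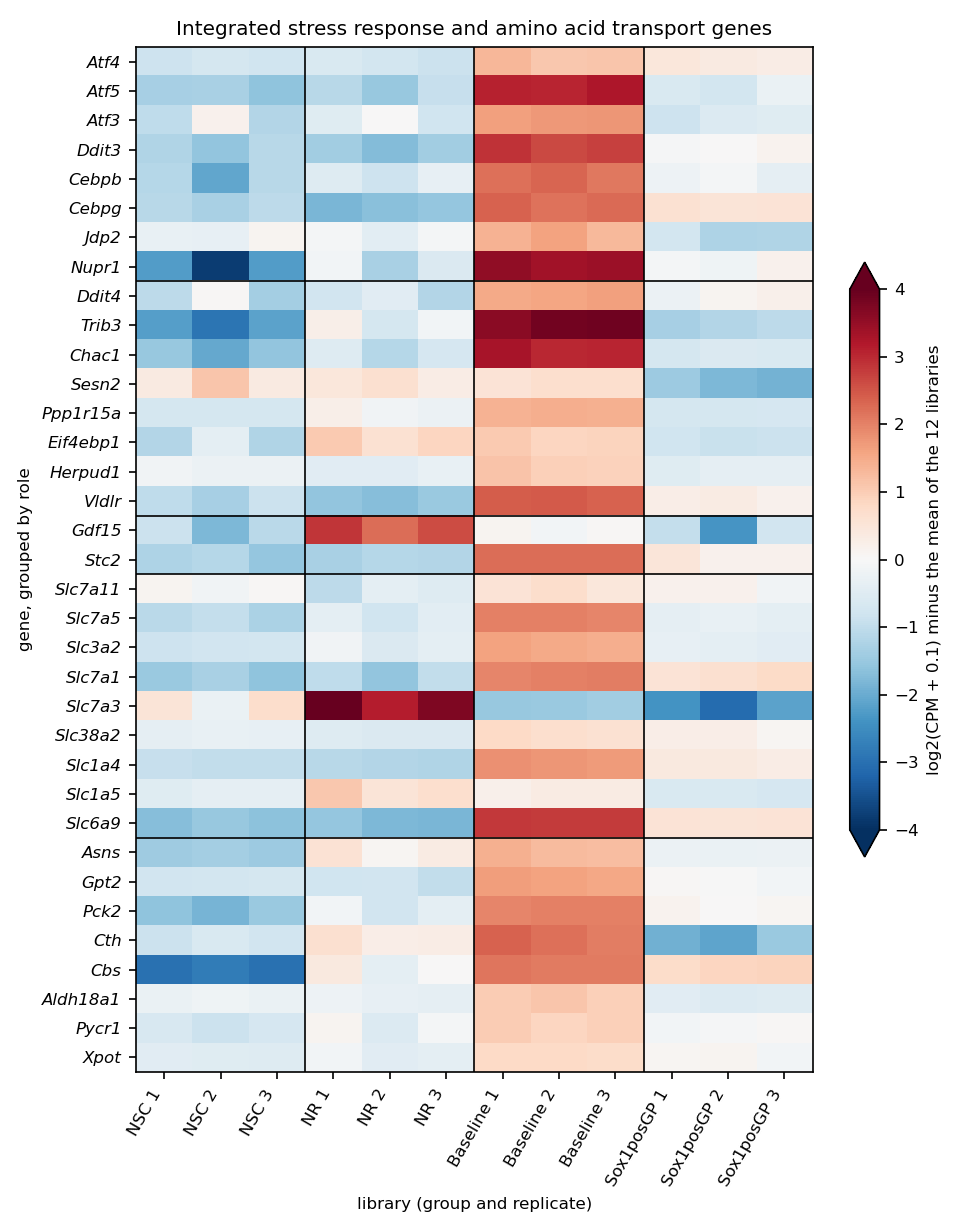
Level of the 35 genes in the 12 libraries, as log2(CPM + 0.1) minus the mean of the gene over all libraries, with red above and blue below that mean. Rows are grouped by role (transcription factors, feedback and signalling regulators, secreted factors, amino acid transporters, amino acid enzymes and tRNA export). The 3 Baseline columns are red for most rows, while *Slc7a3* and *Gdf15* are reddest in NR.

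The transcription factors of the response all had their highest mean in Baseline. *Atf4* (ENSMUSG00000042406, chr15:80255184-80257541), its central activator, was at 971, 808 and 824 CPM in Baseline and at 529, 491 and 469 CPM in Sox1posGP. It was at 217, 235 and 220 CPM in NSC and at 250, 231 and 210 CPM in NR. Both NPC groups thus lay above NSC and NR without overlap, and NSC and NR overlapped. The log2 fold change of *Atf4* in Sox1posGP against Baseline was -0.81 ± 0.09 (± SE here and below), the smallest among the 8 transcription factors. *Atf5*, a relative of *Atf4* that is also controlled by translation, was at 122 to 140 CPM in Baseline, 8.79 to 12.2 CPM in Sox1posGP, 4.82 to 6.01 CPM in NSC and 5.10 to 7.76 CPM in NR, with a log2 fold change of -3.66 ± 0.18 in Sox1posGP against Baseline. *Nupr1*, a small stress-induced chromatin protein, was at 450, 391 and 409 CPM in Baseline against 36.2, 34.2 and 43.4 CPM in Sox1posGP and 8.12, 2.66 and 8.08 CPM in NSC.

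*Ddit3* (ENSMUSG00000025408, chr10:127290774-127296288) encodes CHOP, which mediates cell death under lasting ER stress. It was at 211, 178 and 188 CPM in Baseline, 27.2, 28.9 and 31.0 CPM in Sox1posGP, 12.4, 9.43 and 13.0 CPM in NSC and 10.8, 8.45 and 10.8 CPM in NR. Its Baseline libraries stood apart from all others, and NSC and NR overlapped. *Cebpg* (ENSMUSG00000056216, chr7:35046422-35056573) encodes a C/EBP partner of ATF4. Its values were 472, 415 and 438 CPM in Baseline, 139, 131 and 135 CPM in Sox1posGP, 42.6, 37.1 and 43.8 CPM in NSC and 25.8, 28.6 and 31.2 CPM in NR, so none of its 4 groups overlapped. *Cebpb* had the order Baseline, Sox1posGP, NR and NSC, with means of 151, 28.2, 22.3 and 12.5 CPM. *Atf3* and *Jdp2*, which encode repressors of the AP-1 family, were lowest in Sox1posGP by their means, at 12.8 and 5.81 CPM against 63.7 and 32.6 CPM in Baseline. *Atf3* varied within NSC (9.69, 21.8 and 8.63 CPM), and its Sox1posGP libraries overlapped with those of NSC.

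Among the regulators that damp the response or carry it to other pathways, *Trib3* had the largest difference of the 35 genes. *Trib3* encodes a pseudokinase that binds ATF4 and CHOP and restrains AKT. It was at 426, 505 and 521 CPM in Baseline, 13.9, 15.4 and 16.8 CPM in Sox1posGP, 40.8, 21.5 and 32.0 CPM in NR and 7.45, 4.52 and 7.77 CPM in NSC, and no pair of groups overlapped. The fitted difference of Sox1posGP against Baseline was 31.2-fold. *Chac1*, an enzyme that degrades glutathione, was at 117, 98.4 and 99.1 CPM in Baseline against 7.24, 8.01 and 7.84 CPM in Sox1posGP. *Ppp1r15a* encodes GADD34, the stress-induced subunit of the phosphatase that reverses eIF2 phosphorylation. It was at 329, 340 and 336 CPM in Baseline, 77.0, 75.5 and 78.4 CPM in Sox1posGP, 76.1, 76.6 and 76.7 CPM in NSC and 145, 114 and 107 CPM in NR, so Sox1posGP and NSC overlapped below the other groups.

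*Sesn2*, which encodes a leucine sensor that inhibits mTORC1, departed from that order. It was at 239, 260 and 261 CPM in Baseline, 210, 351 and 207 CPM in NSC and 221, 256 and 201 CPM in NR, and these 3 groups overlapped. Sox1posGP lay below all of them at 59.3, 46.8 and 43.5 CPM. *Eif4ebp1*, the translational repressor 4E-BP1, was at 559, 488 and 503 CPM in Baseline and 563, 410 and 496 CPM in NR, against 156, 145 and 149 CPM in Sox1posGP and 121, 208 and 118 CPM in NSC. It therefore formed a high pair and a low pair of groups, and the groups within each pair overlapped. *Vldlr* (ENSMUSG00000024924, chr19:27216484-27254231), a lipoprotein receptor, was at 221, 228 and 212 CPM in Baseline, 49.8, 51.8 and 46.7 CPM in Sox1posGP, 20.4, 16.3 and 22.9 CPM in NSC and 13.9, 12.5 and 14.6 CPM in NR, again without overlap. *Ddit4*, another inhibitor of mTORC1, and *Herpud1*, a component of ER-associated degradation, had means of 203 and 190 CPM in Baseline and 69.4 and 71.4 CPM in Sox1posGP. Within NSC, *Ddit4* was at 71.0 CPM in replicate 2 and at 32.8 and 26.2 CPM in the others.

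The secreted factors differed from each other. *Stc2* (ENSMUSG00000020303, chr11:31357307-31370074), a glycoprotein hormone, was at 78.1, 78.3 and 78.1 CPM in Baseline, 23.5, 18.5 and 18.7 CPM in Sox1posGP, 7.02, 7.46 and 5.64 CPM in NSC and 6.65, 7.52 and 7.28 CPM in NR. *Gdf15*, a stress hormone that lowers appetite, had the lowest mean over all libraries, at 1.31, 1.12 and 1.25 CPM in Baseline and 0.579, 0.157 and 0.667 CPM in Sox1posGP. In NR it reached 9.48, 6.03 and 7.95 CPM, above all libraries of the other groups, and in NSC 0.626, 0.276 and 0.518 CPM. The Sox1posGP values of *Gdf15* rest on few reads, since 3 counts correspond to between 0.475 and 0.881 CPM of the total in those libraries.

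**Figure D2:**
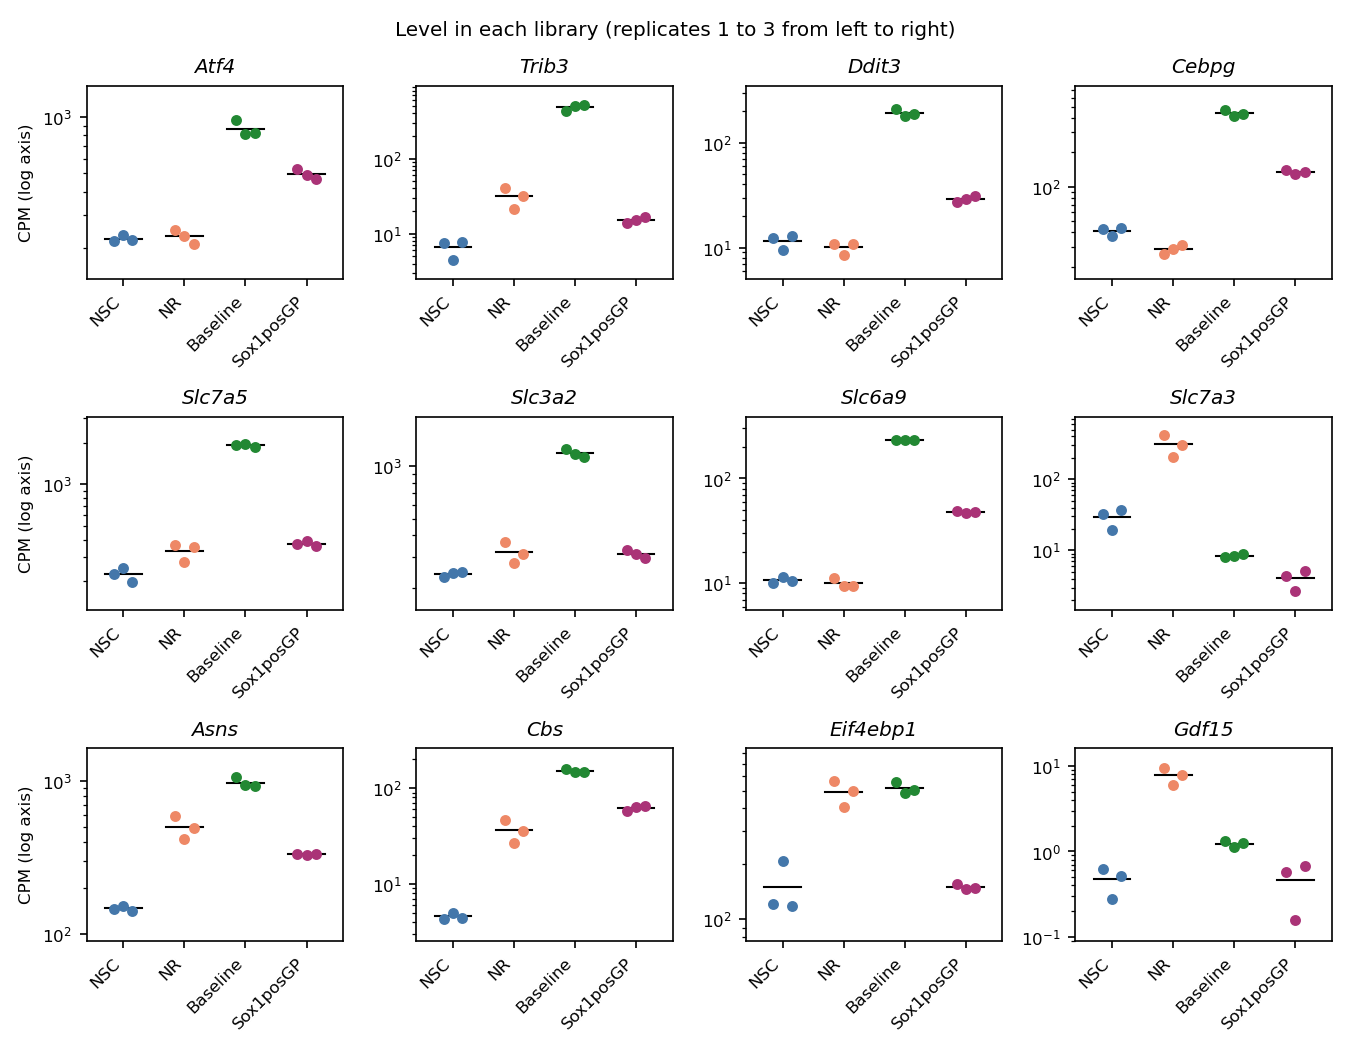
Level of 12 of the genes in each library, in CPM on log axes that differ between panels, with the 3 replicates of a group as points from left to right and their mean as a line. *Atf4*, *Trib3*, *Ddit3*, *Cebpg*, *Slc7a5*, *Slc3a2*, *Slc6a9*, *Asns* and *Cbs* are highest in Baseline, *Slc7a3* and *Gdf15* in NR, and *Eif4ebp1* is equally high in Baseline and NR within its spread.

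The transporters bring amino acids across the plasma membrane. *Slc7a5* encodes LAT1, which exchanges large neutral amino acids such as leucine, and works as a dimer with the heavy chain encoded by *Slc3a2*. *Slc7a5* was at 1929, 1947 and 1850 CPM in Baseline, 370, 391 and 362 CPM in Sox1posGP, 363, 275 and 354 CPM in NR and 226, 249 and 200 CPM in NSC. *Slc3a2* was at 1260, 1173 and 1129 CPM in Baseline, 327, 314 and 298 CPM in Sox1posGP, 368, 276 and 314 CPM in NR and 231, 241 and 245 CPM in NSC. For both partners Baseline stood apart, Sox1posGP and NR overlapped and NSC was lowest. Per kilobase of exon *Slc7a5* was the most abundant of the 35 genes in Baseline, at 515 RPKM (CPM divided by exon length in kilobases), followed by *Atf4* at 368 RPKM, *Asns* at 356 RPKM and *Slc3a2* at 336 RPKM. The ratio of *Slc7a5* to *Slc3a2* per kilobase was 1.53 ± 0.07 in Baseline, 1.14 ± 0.06 in Sox1posGP, 0.987 ± 0.077 in NR and 0.895 ± 0.108 in NSC (SD, n = 3 each), so the larger value in Baseline did not overlap with that of Sox1posGP.

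*Slc6a9* (ENSMUSG00000028542, chr4:117834506-117875198) encodes GLYT1, the glycine transporter of glia. It was at 234, 230 and 231 CPM in Baseline, 48.9, 47.1 and 48.0 CPM in Sox1posGP, 10.1, 11.6 and 10.5 CPM in NSC and 11.3, 9.39 and 9.36 CPM in NR. *Slc1a4* (ENSMUSG00000020142, chr11:20302180-20332713), a transporter of alanine, serine and cysteine, was at 334, 323 and 308 CPM in Baseline, 124, 125 and 117 CPM in Sox1posGP, 49.6, 48.0 and 48.2 CPM in NSC and 44.3, 41.8 and 40.7 CPM in NR. *Slc7a1* (ENSMUSG00000041313, chr5:148327410-148399904), the cationic transporter CAT1, was at 432, 445 and 463 CPM in Baseline, 162, 174 and 188 CPM in Sox1posGP, 39.7, 45.1 and 36.0 CPM in NSC and 54.2, 37.3 and 55.7 CPM in NR. All of these genes had the order Baseline, Sox1posGP and then NSC and NR, with a wide step between the NPC groups and the others.

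Its relative *Slc7a3* (ENSMUSG00000031297, chrX:101079210-101086020), the cationic transporter CAT3, had another order. It was at 417, 205 and 307 CPM in NR, 32.8, 19.3 and 37.5 CPM in NSC, 8.12, 8.23 and 8.77 CPM in Baseline and 4.34, 2.67 and 5.17 CPM in Sox1posGP, and no groups overlapped. *Slc7a1* was thus highest in Baseline and *Slc7a3* in NR, while both were lower in Sox1posGP than in Baseline. *Slc1a5*, the glutamine transporter ASCT2, was likewise highest in NR, at 229, 155 and 174 CPM, then at 125, 138 and 136 CPM in Baseline, 77.2, 85.7 and 85.1 CPM in NSC and 71.2, 70.8 and 69.2 CPM in Sox1posGP. *Slc38a2*, a carrier of small neutral amino acids, and *Slc7a11*, the cystine carrier xCT, had the smallest differences between Sox1posGP and Baseline, at -0.49 ± 0.08 and -0.50 ± 0.16 on the log2 scale. The annotated exons of *Slc7a11* hold a stretch of 373 bases that is 96.0% identical to *Tuba1a*, so reads of tubulin genes could have been counted there.

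The enzymes make amino acids or the carbon and sulphur compounds linked to them. *Asns*, asparagine synthetase, was at 1060, 937 and 925 CPM in Baseline, 590, 416 and 494 CPM in NR, 335, 327 and 332 CPM in Sox1posGP and 147, 153 and 143 CPM in NSC, with no overlap between groups. *Gpt2* (ENSMUSG00000031700, chr8:85492576-85527560), the mitochondrial alanine aminotransferase, was at 604, 579 and 555 CPM in Baseline, 193, 189 and 176 CPM in Sox1posGP, 111, 112 and 117 CPM in NSC and 108, 110 and 94.4 CPM in NR. *Pck2*, mitochondrial phosphoenolpyruvate carboxykinase, had means of 259, 68.5, 49.6 and 20.9 CPM in Baseline, Sox1posGP, NR and NSC.

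Both enzymes that turn homocysteine into cysteine had wide ranges. *Cbs* (ENSMUSG00000024039, chr17:31608894-31637238), cystathionine beta-synthase, was at 157, 149 and 149 CPM in Baseline, 58.2, 64.1 and 65.0 CPM in Sox1posGP, 46.1, 26.7 and 35.9 CPM in NR and 4.34, 5.01 and 4.39 CPM in NSC. *Cth*, cystathionine gamma-lyase, which acts on the product of *Cbs*, was at 178, 158 and 143 CPM in Baseline, 53.2, 41.5 and 42.1 CPM in NR, 18.8, 22.5 and 20.1 CPM in NSC and 8.97, 7.85 and 12.2 CPM in Sox1posGP. *Cbs* was thus lowest in NSC and *Cth* in Sox1posGP, and no groups overlapped for either gene. The proline enzymes *Aldh18a1* and *Pycr1* had means of 450 and 108 CPM in Baseline against 157 and 54.9 CPM in Sox1posGP, and *Xpot*, a tRNA exporter, 451 CPM against 269 CPM.

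Comparisons other than Sox1posGP against Baseline, which chose the genes, were then tested. NSC and NR were each compared with the midpoint of both NPC groups (the mean of Baseline and Sox1posGP on the log scale). The estimation error of this contrast had a median correlation of -0.0463 (NSC) and -0.0459 (NR) with that of the choosing contrast. The lowest values were -0.381 and -0.423. The midpoint still holds both groups that chose the genes, and Baseline had the highest mean for 31 of the 35 genes. Counts and p values against the midpoint are therefore not independent of the choice. Calls below are at an adjusted p under 0.1 (quasi-likelihood F test in edgeR, adjusted over all genes tested by Benjamini-Hochberg). Against the midpoint, NSC was called lower for 32 of the 35 genes and higher for 2, while 33.8% of all genes were called lower and 45.4% higher. The median log2 fold change was -1.53 for the 35 genes and 0.18 for all genes. All NSC libraries lay below all NPC libraries for 22 of the 35 genes and above them for 1, against 23.8% and 34.8% of all genes. All 8 transcription factors and all 8 enzymes and tRNA export genes were lower. The largest falls were -4.41 ± 0.16 for *Cbs* (adjusted p = 3.73e-11) and -4.30 ± 0.33 for *Nupr1* (4.39e-08). *Slc7a3* was higher by 2.37 ± 0.26 (1.57e-06) and *Sesn2* by 1.19 ± 0.15 (6.70e-06), and *Gdf15* was at -0.61 ± 0.39 (0.167). The NSC libraries overlapped with those of Baseline for *Sesn2*, so its rise is relative to a midpoint that includes the lower Sox1posGP. The calls of *Jdp2*, *Slc7a11* and *Slc1a5* depended on single libraries, with values of -0.28, -0.25 and -0.18 (0.175, 0.158 and 0.184) without NSC replicate 1, 2 and 1, respectively. With all libraries kept, these calls were also lost without the filter on low counts (0.263, 0.179 and 0.297, respectively).

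NR was called lower than the midpoint for 29 genes and higher for 5, against 34.6% and 46.6% of all genes, and the counts were again 29 and 5 without NR replicate 1. The median log2 fold change was -1.35 for the 35 genes and 0.18 for all genes. All NR libraries lay below all NPC libraries for 15 genes and above them for 3, against 24.4% and 36.7% of all genes. The smallest p values were those of *Slc6a9* at -3.41 ± 0.09 (adjusted p = 1.37e-12 in edgeR), *Cebpg* at -3.09 ± 0.09 (3.46e-12) and *Slc1a4* at -2.23 ± 0.07 (3.90e-12). *Vldlr* was at -2.93 ± 0.11, *Ddit3* at -2.90 ± 0.13, *Stc2* at -2.46 ± 0.12 and *Gpt2* at -1.66 ± 0.07. The 5 genes that were higher were *Slc7a3* by 5.75 ± 0.25 (1.27e-10), *Gdf15* by 3.38 ± 0.30 (1.74e-07), *Sesn2* by 1.01 ± 0.15 (3.07e-05), *Slc1a5* by 0.94 ± 0.10 (1.03e-06) and *Eif4ebp1* by 0.81 ± 0.15 (0.00024). The NR libraries overlapped with those of Baseline for *Sesn2* and *Eif4ebp1*, so these rises are relative to a midpoint that includes the lower Sox1posGP. *Cth* was at 0.21 ± 0.13 (0.152). It was called higher in edgeR with DESeq2 size factors at 0.25 (0.0849) and with upper-quartile scaling at 0.26 (0.0662). The Wald test of DESeq2 also called it, at 0.25 (0.0873). *Asns* was called lower at -0.19 ± 0.09 (0.0855), but it was at -0.35 (0.00247) without NR replicate 1 and at -0.06 (0.519) without NR replicate 2. Its call was also lost with all libraries kept under other scalings (0.186 with DESeq2 size factors and 0.212 with upper-quartile scaling). *Atf4* was lower than the midpoint in NSC by a log2 fold change of -1.55 ± 0.09 (1.47e-09) and in NR by -1.51 ± 0.09 (1.76e-09).

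NR and NSC, of which neither entered the choice of genes, were compared directly. NR was sorted for GFP and NSC was unsorted, so sorting and cell state cannot be told apart between them either. Of the 35 genes 17 were called higher in NR and 6 lower, while 30.0% and 26.6% of all genes were called in those directions, and without NR replicate 1 the counts were 16 and 6. The NR libraries lay above all NSC libraries for 16 genes and below them for 7, against 30.0% and 26.6% of all genes. *Atf4* itself was at 0.04 ± 0.09 (adjusted p = 0.733 in edgeR), with overlapping libraries. Of the 8 enzymes and tRNA export genes 5 were called higher and none lower, led by *Cbs* at 2.98 ± 0.16 (1.03e-07), *Asns* at 1.76 ± 0.11 (2.16e-07) and *Pck2* at 1.24 ± 0.14 (1.63e-05). Among feedback regulators *Trib3* was higher by 2.23 ± 0.22 (5.53e-06) and *Eif4ebp1* by 1.72 ± 0.18 (1.12e-05). *Nupr1* was higher by 1.99 ± 0.33 (0.000251), although *Atf5*, *Atf3*, *Ddit3* and *Jdp2* did not pass the threshold. The largest differences were those of *Gdf15* at 3.99 ± 0.32 (1.48e-06) and *Slc7a3* at 3.37 ± 0.26 (1.11e-06).

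Of the 9 transporters 5 were called higher and 3 lower in NR than in NSC, where 30.0% and 26.6% of all genes were called. *Slc1a5* was higher by 1.17 ± 0.12 (adjusted p = 6.74e-06 in edgeR), *Slc7a5* by 0.56 ± 0.11 (0.000846) and *Slc3a2* by 0.41 ± 0.10 (0.00284). *Slc7a1* was called higher at 0.28 ± 0.13 (0.0908), but in a fit of only these groups it was at 0.24 (0.273) without and at 0.23 (0.308) with a replicate block, while the block over all libraries kept the call at 0.27 (0.0985). Without NR replicate 1 it was at 0.21 (0.276), and the call was also lost without NR replicate 3 or without NSC replicate 1 or 3. *Slc7a11* was lower at -0.63 ± 0.15 (0.00338), *Slc38a2* at -0.23 ± 0.08 (0.0313) and *Slc1a4* at -0.20 ± 0.07 (0.0248). Outside the transporters, *Vldlr* was lower at -0.54 ± 0.11 (0.00149), *Cebpg* at -0.52 ± 0.09 (0.000361) and *Herpud1* at -0.21 ± 0.08 (0.0395). The call of *Herpud1* was lost without NR replicate 1 (0.103) or NR replicate 2 (0.105), and those of *Slc38a2* and *Slc1a4* without NR replicate 3 (0.103 and 0.104). With all libraries thinned to the smallest, *Slc1a4* was at -0.01 (0.971). For *Ddit4*, which was not called at -0.12 ± 0.28, the value without NSC replicate 2 was 0.41 (0.059).

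**Figure D3:**
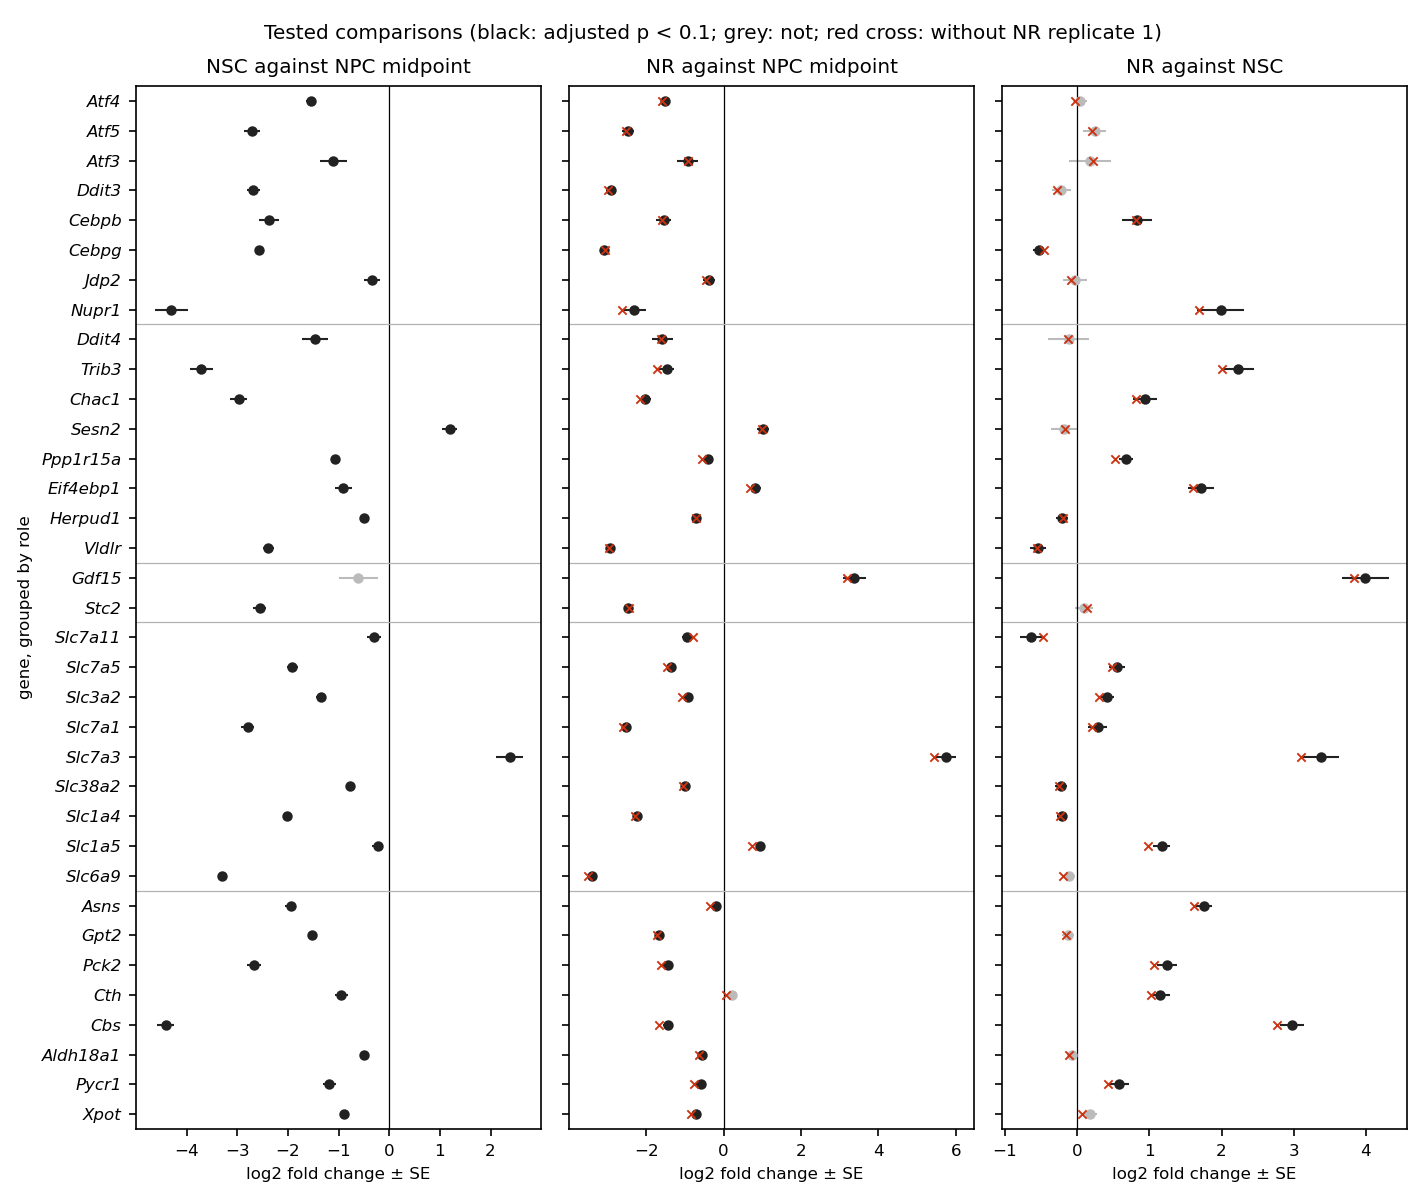
Log2 fold change ± SE of the 35 genes in the tested comparisons (NSC against the NPC midpoint, NR against the NPC midpoint, NR against NSC), with black points at an adjusted p under 0.1, grey points above it, and red crosses for the value without NR replicate 1. Most points lie left of 0 in the first panels, and 17 of the 23 black points lie right of 0 in the last panel.

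Marker levels and library identity moved with the difference between NR and NSC. Among the 17 genes called higher in NR, NR replicate 1 was the highest NR library for 15 and NR replicate 2 the lowest for 16. Over all 35 genes these counts were 22 and 22. The share among all genes called higher in NR was not counted, so this order is not shown to be particular to these genes. The summed level of the 6 pluripotency markers had the same order, at 2553 CPM in NR replicate 1, 1938 CPM in replicate 3 and 1345 CPM in replicate 2, and all 6 markers had more than 3 counts in an NR library. The summed mesoderm and mesenchyme markers (4786, 3354 and 1348 CPM) and those of blood and endothelium (129, 91.9 and 71.2 CPM) had this order of NR replicates 1, 3 and 2 too. The mesenchymal sum was mostly collagen, with *Col1a1* at 2985, 413 and 2125 CPM in NR replicates 1, 2 and 3. *T* (27.6, 79.8 and 21.6 CPM) and *Acta2* (275, 696 and 206 CPM) were instead highest in NR replicate 2. The blood and endothelium sum was mostly *Pecam1* (122, 65.8 and 86.1 CPM). *Dppa5a* alone was at 1612, 813 and 1272 CPM in NR against 82.4, 24.4 and 71.1 CPM in NSC. The 6 neural progenitor markers summed to 749 to 1274 CPM in NR and 2129 to 2312 CPM in NSC. The part of cells that express these markers in the differences of the 35 genes was not tested. NSC replicate 2 stood apart in the mesenchymal markers, with *Col1a1* lower at 381 CPM against 1084 and 1080 CPM and *Acta2* higher at 880 CPM against 143 and 141 CPM. Among the NSC libraries it was the highest for 16 of the 35 genes and the lowest for 15, so it had no shared direction. *Atf3*, *Ddit4*, *Sesn2* and *Eif4ebp1* were among those highest there, and *Nupr1*, *Trib3* and *Cebpb* among those lowest.

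Other lists of the pathway, whose genes are not among the 35, were read in the same fit. They too were chosen with earlier results of these data known, so their counts are not independent support. Of 27 further genes linked to ATF4 (serine and one-carbon enzymes, tRNA synthetases and others), 24 were called lower in Sox1posGP than in Baseline and none higher, against 22.7% and 21.6% of all genes. Their median log2 fold change was -1.07. *Lonp1*, a mitochondrial protease, fell from 905 ± 30 CPM in Baseline to 141 ± 4 CPM in Sox1posGP (log2 fold change -2.68 ± 0.08, adjusted p = 1.36e-10 in edgeR). *Fgf21*, a hormone released under nutrient stress, fell from 10.9 ± 0.8 CPM to 0.164 ± 0.167 CPM, at or under 3 counts in each Sox1posGP library. The same 27 genes had 23 lower and 3 higher calls in NSC against the midpoint, where all genes had 33.8% and 45.4%. In NR against the midpoint 20 were lower and 5 higher, against 34.6% and 46.6% of all genes. In NR against NSC 18 were higher and 1 lower, against 30.0% and 26.6% of all genes.

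The upstream and neighbouring arms were read in Sox1posGP against Baseline as well, with no test of a difference between lists. Among 15 genes of the eIF2 kinases, eIF2, eIF2B and the constitutive phosphatase, 2 were called higher and 6 lower with a median log2 fold change of -0.21, and the list's number of calls was 13 when only the groups compared entered the fit. *Eif2ak3*, which encodes the ER stress kinase PERK, rose by 1.12 ± 0.14 (adjusted p = 2.81e-05 in edgeR), from 13.2 ± 1.6 CPM to 28.8 ± 3.4 CPM. Of 20 ER chaperones and targets of ATF6 and XBP1, 10 were called higher and 3 lower, with a median of 0.18. *Hspa5*, the ER chaperone BiP, rose by 0.79 ± 0.10 (4.30e-05) and *Sdf2l1* by 0.95 ± 0.12 (2.91e-05), whereas *Sel1l*, of ER-associated degradation, fell by -1.71 ± 0.08 (6.78e-09) and the sensor *Atf6* by -1.65 ± 0.10 (5.33e-08).

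Of 19 other amino acid transporters tested, 1 was called higher and 4 lower in Sox1posGP, with a median log2 fold change of -0.15, and *Slc1a3*, the glial glutamate transporter GLAST, fell by -1.14 ± 0.09 (adjusted p = 3.70e-07 in edgeR). Of 10 targets of NRF2, the regulator of oxidative stress genes, 4 were called higher and 2 lower, and *Srxn1* rose by 2.09 ± 0.22 (6.79e-06). Of 13 immediate early and dissociation genes, which respond to handling of cells, 6 were called higher and 5 lower with a median of 0.44. Their part in the difference between the sorted and unsorted NPC groups was not tested. *Ier3* was at 45.8 ± 5.2 CPM in Baseline and 0.558 ± 0.278 CPM in Sox1posGP. Mitochondrial transcripts took 1.56 to 1.67% of counts in Sox1posGP, 1.17 to 1.29% in Baseline and 0.429 to 0.555% over NSC and NR.

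**Figure D4:**
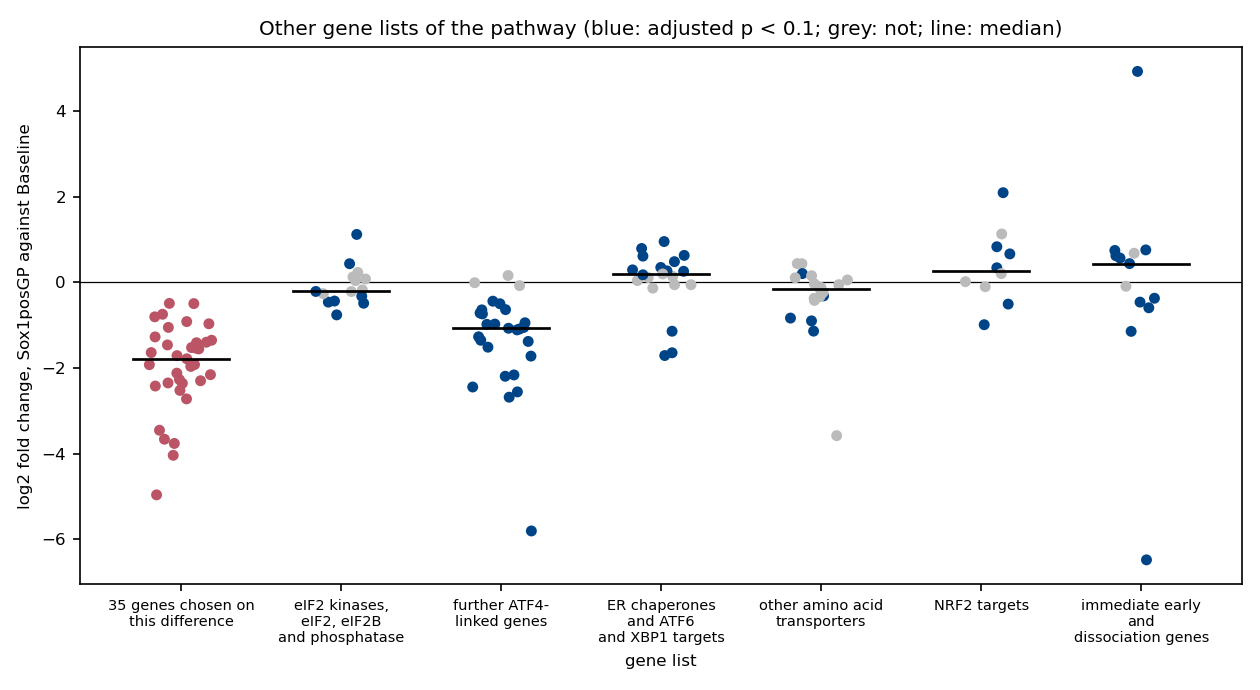
Log2 fold change of Sox1posGP against Baseline for the 35 genes, which were chosen on this difference (red, no test), and for the other lists (blue at an adjusted p under 0.1, grey above), with the median of each list as a line. The medians are -1.79 for the 35 genes, -1.07 for the further genes linked to ATF4, and between -0.21 and 0.44 for the other 5 lists.

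The 35 genes lie on 16 chromosomes, whose other genes had median log2 fold changes between -0.29 and 0.17 in Sox1posGP against Baseline. The smallest change among the 35 genes, -0.49 for *Slc38a2*, was larger than any of these medians, and this comparison chose the genes. Shared exons limit some values where strand was not used in counting. *Slc6a9* shares 1429 exon bases with *Ccdc24* on the opposite strand, *Cebpb* shares 312 bases with *Tmem189*, and *Xpot* resembles the pseudogene *Gm7389* over 2529 bases at 96.0% identity. *Ccdc24* and *Gm7389* held 47 and 323 counts over all libraries, against 7939 for *Tmem189*.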

How the data were processed

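RNA from 12 libraries of mouse neural cells was isolated with the PicoPure kit, amplified with SMART-Seq v4 and made into libraries with MicroPlex, per the labels. The authors deposited whole-number read counts for 45706 Ensembl genes without normalization. The submitters' processing notes name STAR 2.6, RSEM 1.1.14 and mm10. Whether these counts are read counts or rounded estimates, the annotation, the strand setting and any filter are not given in the sources used here, and how reads shared by genes were assigned is not given either. Symbols, coordinates and exon lengths came from GENCODE on GRCm38, and promoters from RefSeq. A symbol was missing for 563 IDs (0.124% of counts).

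The 35 genes and all lists were chosen with earlier results of these data known. Groups and replicate numbers came from the titles in the labels. Counts were scaled by TMM, kept by filterByExpr over 4 groups, and fitted in edgeR 4.0.16 (glmQLFit and glmQLFTest, limma 3.58.1, R 4.3.3) over all 12 libraries and with no block (prior count 0.125). P values were adjusted by Benjamini-Hochberg over 17003 genes, and SE was taken as |log2 fold change| over root F. CPM are TMM scaled, and RPKM divide them by exon length. Precision follows depth, which was lowest in Sox1posGP. Replicates of a group differed by more than counting noise (chi-square per degree of freedom of at least 1.54), so each library was counted as its own sample. Limits from 3 counts cover counting error only.

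Deviations of same-numbered libraries correlated at 0.229 to 0.490 between NSC and NR and at -0.0472 to 0.0619 between other groups, so the numbers were taken to pair NSC with NR only, a pairing that comes from the counts and not from a label. Members given in full were the 10 with the smallest p in the tested comparisons among those with a mean of at least 5 CPM, and *Atf4*. Other members with values, and their order in the text, were chosen after values were seen. From other lists, genes with the largest rise or fall of their list were named, at most 2 in a direction. Calls were tested on simulated data with 200 of 17003 genes changed by a log2 fold change of 3 in NSC against the midpoint, where 100% of rises and falls and 0.0595% of unchanged genes were called. Alternatives were other scalings, filters, thresholds and prior counts, DESeq2 1.42.0, a replicate block, fits of only the groups compared, thinning of all libraries to 3407066 counts, centring on the chromosome, and leaving out each replicate. A block fitted to NSC and NR alone was added after seeing the data. Python 3.11.15 was used for tables (pandas 2.3.3, scipy 1.17.1) and plots (matplotlib 3.10.9).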

Additional observations from a re-analysis of the deposited data

Results flagged for a closer look

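The differences of NR and of NSC from the NPC midpoint had opposite signs, each at an adjusted p under 0.1, for *Eif4ebp1* and *Slc1a5*, and the difference between NR and NSC was itself tested (quasi-likelihood F test in edgeR, Benjamini-Hochberg over all genes). For *Eif4ebp1* the log2 fold change against the midpoint was -0.90 ± 0.16 in NSC and 0.81 ± 0.15 in NR, and NR exceeded NSC by 1.72 ± 0.18 (adjusted p = 1.12e-05, higher in 3 of 3 NR libraries than in all NSC libraries). The midpoint of *Eif4ebp1* includes Sox1posGP, in which the gene was chosen to be low, and against Baseline alone NR was at -0.08 ± 0.18 (means of 489 and 517 CPM). For *Slc1a5* it was -0.23 ± 0.10 in NSC and 0.94 ± 0.10 in NR, and NR exceeded NSC by 1.17 ± 0.12 (adjusted p = 6.74e-06, again 3 of 3). The NSC value of *Slc1a5* lost its call in several alternatives, for example at -0.18 without NSC replicate 1 (0.184). Groups of 3 libraries were too small for a test of single libraries that stand apart.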

How the results depend on the processing

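Under other scalings, filters and prior counts, DESeq2, the thinned counts, the stricter adjusted p under 0.05 and fits of only the groups compared, the counts of called genes among the 35 stayed within 1.5 times those reported, and no gene called in a tested comparison changed sign. The fold threshold of 4 cut the counts by its construction. It left 15 in NSC against the midpoint (14 lower, 1 higher), 12 in NR against the midpoint (10 lower, 2 higher) and 4 in NR against NSC (4 higher, 0 lower). For the other lists in Sox1posGP against Baseline it left 0 of the eIF2 genes, 6 of the further ATF4-linked genes, 0 of the ER chaperones, 0 of the other transporters, 1 of the NRF2 targets and 2 of the immediate early genes. The eIF2 list had 13 calls in a fit of only the groups compared and 5 in the thinned counts, against 8, and the cause was not tested. Leaving out each replicate gave 32 to 34 called genes in NSC against the midpoint, 33 to 34 in NR against the midpoint and 20 to 26 in NR against NSC. In NR against NSC *Ddit4* ranged from -0.40 without NSC replicate 3 to 0.41 without NSC replicate 2. Apart from the calls given with the results, those of *Jdp2* (NR replicate 2) and *Asns* (NR replicate 3, Sox1posGP replicate 2 or 3) in NR against the midpoint, and of *Jdp2* (NSC replicate 2, Baseline replicate 2), *Slc7a11* (Baseline replicate 2, Sox1posGP replicate 2) and *Slc1a5* (Baseline replicate 3, Sox1posGP replicate 2 or 3) in NSC against the midpoint, were lost without a library in parentheses, and calls were gained in NR against NSC for *Atf3* and *Ddit3* (NSC replicate 2), *Atf5* and *Xpot* (NR replicate 2) and *Slc6a9* (NR replicate 1), in NR against the midpoint for *Cth* (NR replicate 2 or Sox1posGP replicate 3), and in NSC against the midpoint for *Gdf15* (NSC replicate 1 or Sox1posGP replicate 2). Over the 35 genes and all alternatives, 659 of 699 values in NSC against the midpoint, 662 of 700 in NR against the midpoint and 586 of 630 in NR against NSC kept their direction and side of the threshold. With the replicate block over all libraries the counts in the tested comparisons were again 34, 34 and 23, and the block changed no call of the 35 genes. A fit of only NSC and NR gave 22 calls with and without the block. In Sox1posGP against Baseline, which chose the genes, the counts (14 past the fold threshold, 33 to 34 without each replicate, 35 with the block) are descriptions and support nothing. Values of *Gdf15* in Sox1posGP and of *Fgf21* are limited by depth.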
